A study of Homo sapiens with 11 samples.

Results

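The binding regions described here are the peaks of ZFP36L2 eCLIP over input in THP1 cells, 19325 in immunoprecipitate replicate 1 and 18901 in replicate 2. All rows of both deposited THP1 tables over input were taken, which gives 38226 of the 67083 peaks over input that the series holds. In eCLIP (enhanced crosslinking and immunoprecipitation) ultraviolet light fixes proteins to the RNA they touch, RNase trims that RNA, and the pieces pulled down by an antibody are sequenced. THP1 is an established human line of acute monocytic leukaemia, which carries the KMT2A-MLLT3 fusion, and the labels name no treatment or genetic change for any group. The groups are 2 immunoprecipitates with an antibody to ZFP36L2 and 1 input, which is 2% of the lysate set aside before the antibody step. The 2 IgG libraries of the line serve as a further control. The libraries were made in duplicate, and since no label ties a duplicate to its own culture, their spread may be technical. Only 1 input library stands behind this line, and whether both replicates were scored against it is not stated, so what a shared input adds to the overlap of the replicates cannot be told apart.

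ZFP36L2 is a member of the TIS11 family, with ZFP36 (tristetraprolin) and ZFP36L1. Its tandem CCCH zinc fingers bind AU-rich elements, copies of the pentamer AUUUA and of the longer core UAUUUAU, mostly in 3' untranslated regions (3' UTRs) of short-lived mRNAs. The protein then recruits the CCR4-NOT deadenylase, and the mRNA loses its poly(A) tail and is degraded. In myeloid cells the best known client mRNAs of the family encode cytokines, chemokines and immediate early transcription factors, while the family members also bind their own mRNAs.

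Bases under a peak could be read only where the peak fell inside a promoter window of the RefSeq tables (250 bases before to 50 after a gene's start, GRCh38.p14). This held for 30 of the 11326 binding sites defined below, each with at least 20 bases inside a window. They include ends of genes that run into the start of a neighbouring gene. The pentamer ATTTA (DNA letters, strand of the peak) stood in 13 of these 30 sites (43.3%, Wilson 95% interval 27.4 to 60.8), and TATTTAT, which contains it, in 11 (36.7%). Among 685 listed cluster regions of both replicates that lay in such windows and were not sites, 4.82% held ATTTA and 2.77% TATTTAT, with a median of 52 bases read against 82 in the sites. The bases read were also richer in GC in these regions, with a mean of 67.4% against 54.4% in the 30 sites. Of all promoter pieces of 82 bases, 6.43% held ATTTA and 0.736% TATTTAT on the gene's strand, and of all whole windows 18.8% and 2.48% (19.4% and 2.70% on the other strand). These shares are descriptions of 30 sites near gene starts and do not cover the rest. The first 8 stretches below are examples from the 13 sites with a match. The last pair are examples from the 6 sites without one that lay below the IgG control in both replicates. A further 8 sites without a match, at or above a log2 fold of 0 over IgG in both replicates, are not shown. Capitals mark every ATTTA, hg38 positions are given, and the letters are RefSeq's, read 5′ to 3′ on the strand of the peak.
EIF1B 5' UTR, chr3:40309831-40309860, plus strand: aagcgttttcttATTTAtttccgttttctc
PRC1 3' UTR, chr15:90966207-90966236, minus strand: tgaagcactattATTTAttcttccgctgtc
TTBK2 3' UTR, chr15:42739080-42739109, minus strand: aaaagtgtaattATTTATTTAattttccca
PARVB 3' UTR, chr22:44172900-44172929, plus strand: cagtatgctgttATTTAttccaataaagac
CEBPB 3' UTR, chr20:50192285-50192314, plus strand: gcccgtggtgttATTTAaagaagaaacgtc
ALG11 coding sequence, chr13:52024441-52024470, plus strand: ctATTTAtttgcttttATTTAtggacttgt
RNF217 distal intron, chr6:124983118-124983147, plus strand: gtctATTTATTTATTTAttgtcttcagaag
TIMM9 5' UTR, chr14:58427526-58427555, minus strand: ggggtttATTTATTTATTTAttttaaggta
ARHGAP5 5' UTR, chr14:32077201-32077230, plus strand: gtgagctggctgcgggagccgtggggctca
GRK5 5' UTR, chr10:119207647-119207676, plus strand: ggggggtgggggggagcgtgttgagggagg

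The sites with and without the pentamer differed little over input, with median log2 folds of 4.10 and 4.0 in the lower replicate. Over IgG, 12 of the 13 sites with ATTTA were at or above a log2 fold of 0 in both replicates and none was below 0 in both. PPP1CB was the exception, with 0.97 in replicate 1 and −0.28 in replicate 2. Enrichment over IgG in both replicates, at a log2 fold and a −log10 p of at least 3, was less frequent. It was reached by 6 of the 13 sites with ATTTA and by 1 of the 17 without. Of the 17 sites without ATTTA, 8 were at or above 0 in both replicates and 6 below 0 in both. Those 6 had a mean GC content of 74.8%, against 46.3% in the 20 sites at or above 0. The remaining sites without ATTTA lacked IgG values, ATP6V0C and MCOLN1 in replicate 2 and PRKAR1A in both replicates. ARHGAP5, a GTPase-activating protein gene, had −2.24 and −1.83 over IgG, and the kinase gene GRK5 −2.81 and −2.18, although both passed over input. PRC1, a spindle midzone gene, had 6.0 and 7.44 over IgG, and EIF1B, a translation factor gene, 5.04 and 6.21. In CEBPB, the gene of a monocytic transcription factor, the site reached 3.68 and 5.37 over IgG. How much the base composition of these windows contributes was not tested.

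A peak over input is a cluster of reads for which the authors' deposited tables give a log2 fold of the immunoprecipitate over input and a −log10 p that both reach 3. These folds and p values, the region labels and the gene names are the authors' own for each peak, and are used only within each list, for description and ranking. Throughout, a pair of values is replicate 1 and then replicate 2. In the lists of all clusters, 19306 of 153162 clusters of replicate 1 (12.6%) and 18871 of 143910 of replicate 2 (13.1%) were such peaks, and 19 and 30 further peaks had no cluster of the same coordinates. The median log2 fold over input was 4.51 and 4.47, the highest 11.17 (an intron of PRRC2C) and 10.61 (an intron of TRIP12), and 17.3% and 17.7% of peaks reached 6. Peaks were short, with a median width of 69 and 64 bases. The −log10 p stood at its highest value, 400, for 362 and 389 peaks. Many peaks shared both fold and p with another peak of the list (89.5% and 89.6%), so their order is not defined by these values.

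The line was checked by which marker genes had any cluster. Of 32 genes of monocyte and macrophage receptors, 18 had clusters in both replicates, among them CD33, ITGAM, ITGB2 and CSF1R, and of 15 myeloid granule and lysozyme genes 8 did. CD14, CD163 and MPO had none. Of 22 lymphoid markers only CD4 and EBF1 had clusters in both replicates, and of 19 erythroid and megakaryocytic markers only EPOR. No cluster lay on CD3D, CD3E, CD79A or the globin genes HBA1, HBA2 and HBB.

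A peak counted as found in the other replicate when a peak there overlapped it on its strand by 1 base or more. This held for 15812 peaks of replicate 1 (81.8%) and 16091 of replicate 2 (85.1%). The share rose steeply with the fold. Among peaks with a log2 fold from 3 to 4 3599 of 5997 and 4152 of 6240 were found, from 4 to 5 it was 83.5% and 88.4%, and from 5 to 6 it was 98.2% in replicate 1 and 3379 of 3414 in replicate 2. At 6 and over, all but 2 of the 3336 peaks of replicate 1 and all but 2 of the 3351 of replicate 2 were found again. Paired peaks carried the same region label in 97.4% of cases and the same gene name in nearly all (99.96%). The difference in log2 fold, replicate 2 minus replicate 1, had a median of −0.028 and an SD of 0.89 over 15812 pairs, 74.3% of pairs differed by less than 1 and 2.79% by at least 2. This SD is the yardstick used below: a difference between sites or replicates under about 0.89 is not told apart from the replicate spread. Peaks that missed the threshold in 1 replicate are not in it, which lowers it, whereas pairs of peaks that overlap only in part can raise it. It was taken over paired peaks, so for merged sites and for differences between sites it is a rough guide.

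**Figure D1:**
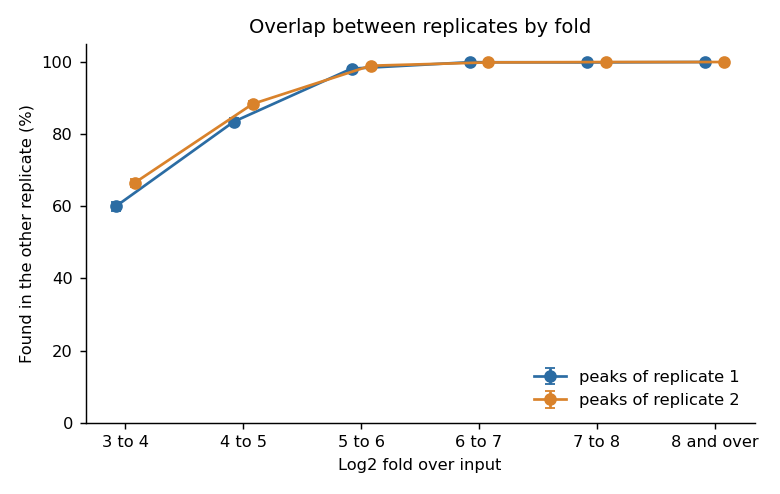
Share of peaks found in the other replicate (vertical axis, percent) by bin of the log2 fold over input (horizontal axis), for peaks of replicate 1 and of replicate 2; bars are Wilson 95% intervals, which cover counting error only. The share is lowest from 3 to 4 (66.5% in replicate 2) and reaches 98.2% or more from a log2 fold of 5.

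The largest differences between paired peaks involved pieces of a site that overlapped in part. In MLLT10, a fusion partner of KMT2A in leukaemia, an intronic peak of 42 bases in replicate 1 had a log2 fold of 4.26 and its 88-base partner in replicate 2 had 9.11. The noncoding RNA TMEM161B-DT had 8.99 and 4.68, TTC28 5.61 and 9.87, the guanine nucleotide exchange factor gene VAV1 4.60 and 8.66, an intronic peak named for both RBM27 and an overlapping transcript 4.79 and 8.71, and the histone methyltransferase gene ASH1L 4.73 and 8.55. The peaks shared between 5 and 31 bases. When peaks that touch were merged, the MLLT10 site had 8.49 and 9.11, which differ by less than 0.89.

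The introns of pre-mRNA held most of the peaks. Distal introns, in the labels of the tables, held 65.0% and 64.0% of the peaks, proximal introns 6.84% and 6.72%, and introns of noncoding transcripts 6.30% and 6.13%, and the distance that separates distal from proximal is not stated. 3' UTRs held 16.1% and 16.7%, or 3113 and 3157 peaks. Coding sequence held 3.03% and 3.15%, splice sites 1.15% and 1.02%, exons of noncoding transcripts 0.96% and 1.44% and 5' UTRs 0.43% and 0.59%. Among reproducible peaks the 3' UTR share was 15.1% ± 0.16 (SD, n = 2), an SD that is small because the peaks of both replicates overlap by definition. Genomic space differs between these classes, so the shares do not compare binding per base.

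Folds and reproducibility differed between the classes. The median log2 fold was 4.65 and 4.63 in distal introns and 4.05 and 4.02 in 3' UTRs, so distal introns had the higher median in both replicates. The medians of a class differed less between the replicates than between the classes, which was not tested. In distal introns 83.7% and 88.1% of peaks were found in the other replicate, in 3' UTRs 76.3% and 77.7%, and in noncoding exons 73.7% and 53.3%. Enrichment over IgG, at the same thresholds and in the peak's own replicate, was reached by 54.4% and 64.9% of 3' UTR peaks and by 41.5% and 59.1% of distal intron peaks. For 5' UTR peaks it was 31.3% and 38.4%. A log2 fold below 0 over IgG was rare in all peaks (45 and 123), but in 5' UTRs it concerned 10 of 83 peaks in replicate 1 and 37 of 112 (33.0%) in replicate 2. In coding sequence it was 2.73% and 5.71%, and in distal introns 0.024% and 0.074%.

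**Figure D2:**
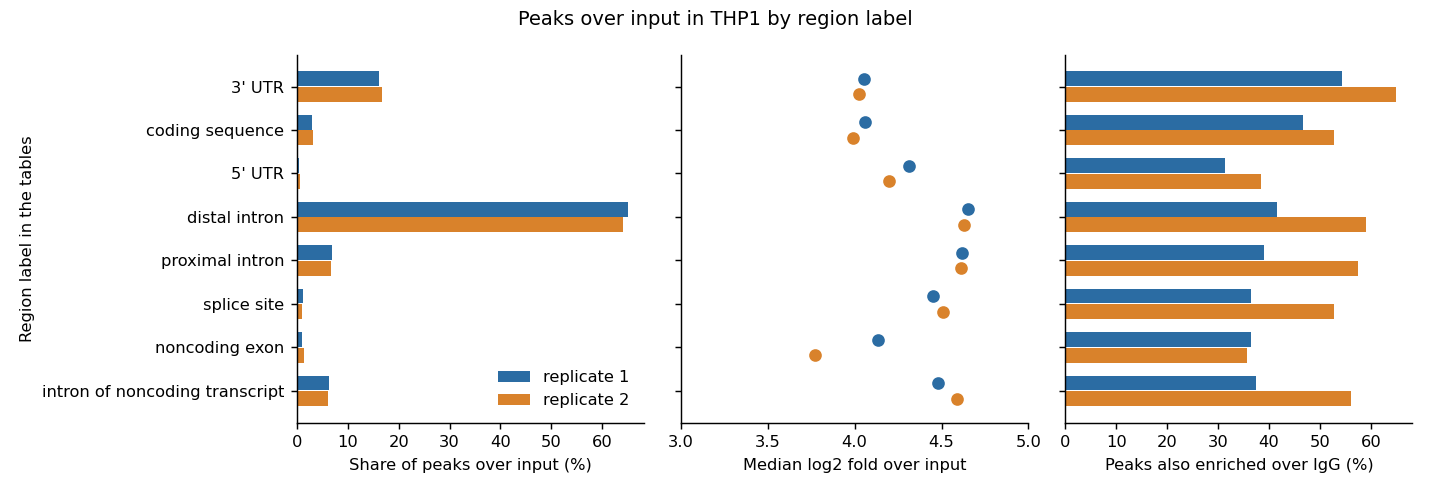
Peaks over input by region label, replicate 1 and replicate 2: share of all peaks (left, percent), median log2 fold over input (middle, an axis that starts at the threshold of 3) and share also enriched over IgG (right, percent). Distal introns hold 65.0% and 64.0% of the peaks, whereas the 3' UTR peaks have the highest share enriched over IgG, 54.4% and 64.9%.

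Reproducible peaks that touched or overlapped on a strand were merged into 11326 binding sites with a median width of 94 bases. Of these, 7400 lay in distal introns, 1759 in 3' UTRs, 808 in proximal introns, 714 in introns of noncoding transcripts, 355 in coding sequence, 131 at splice sites, 100 in noncoding exons and 45 in 5' UTRs. A site's fold is that of its highest peak in each replicate. The sites were enriched over IgG in both replicates in 42.5% of cases (4819), from 55.9% in 3' UTRs to 35.6% in 5' UTRs among these classes. Only 20 sites were below 0 over IgG in both replicates, 8 of them in coding sequence and 5 in 5' UTRs.

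The 3' UTR sites were ranked by the lower replicate. CERT1, which encodes the ceramide transfer protein, had log2 folds over input of 9.41 and 9.68 at chromosome 5, 75375523 to 75375599. NSD2, a histone H3 lysine 36 methyltransferase gene, had 8.74 and 9.05, the postsynaptic scaffold gene DLG4 9.88 and 8.72, the homeobox gene ONECUT2 8.61 and 8.72 and MTCL2, a microtubule crosslinking factor gene, 9.39 and 8.59. Replicates differed by more than 0.89 for DLG4 and by less for the other 4. UBE2W, a ubiquitin-conjugating enzyme gene, followed with 7.99 in both replicates.

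IL1B, CXCL8 and VEGFA held the next places. The IL1B site, for the cytokine interleukin-1β, spanned chromosome 2, 112829921 to 112830054 and ended 170 bases before the gene's 3' end. The site of the neutrophil chemokine gene CXCL8 spanned chromosome 4, 73743066 to 73743193. In both genes replicate 1 was the higher, with 9.25 against 7.94 for IL1B and 9.15 against 7.72 for CXCL8. VEGFA, the angiogenic growth factor gene, had a pair of 3' UTR sites 336 bases apart, the higher with 7.59 and 7.57 only 68 bases before the gene's end.

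The other 16 of the 25 highest genes had lower-replicate folds between 7.12 and 7.54, a range below the replicate spread, so their order is not resolved. DNAJC16, SUGT1 (a co-chaperone of HSP90), MYPOP, PFKFB3 (a regulator of glycolysis), SLC25A11 (a mitochondrial carrier), TTC21B and EEA1 (an early endosome tether) led them. YJU2B, SKP1 (a subunit of SCF ubiquitin ligases), TRIM66, EPS15L1, TMEM65, ASB1, C16orf87 and SERINC3 followed, as did STING1, which encodes a sensor adaptor for DNA in the cytosol, with input folds of 7.74 and 7.27 and IgG folds of 6.01 and 7.26. SERINC3, a serine incorporator gene, had the highest value over IgG of the 25, 7.88 and 7.86. All 25 reached a log2 fold of 3 over IgG in both replicates except TRIM66, with 2.82 and 4.11. Several of these labels refer to transcripts that end far inside the longest gene model: the site lay 35842 bases before the RefSeq 3' end in NSD2, 91221 in PFKFB3 and 85287 in EPS15L1. In DNAJC16 it lay outside the RefSeq gene, at −4103 bases from that end.

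**Figure D3:**
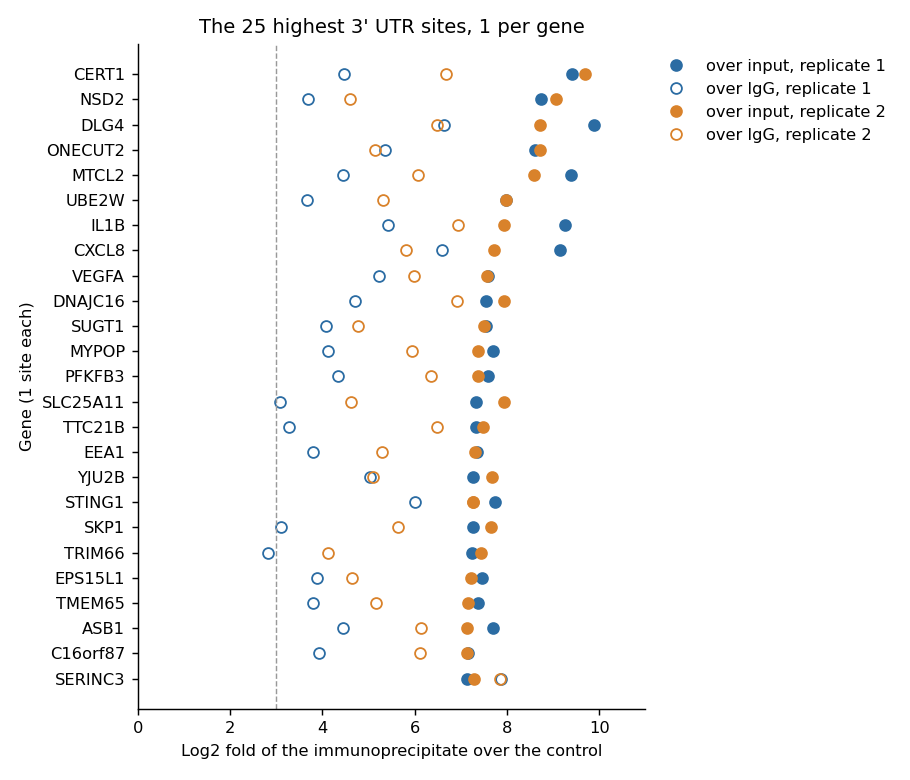
The 25 genes with the highest 3' UTR site, ranked by the lower replicate: log2 fold over input (filled) and over IgG (open) for replicate 1 and replicate 2, with the threshold of 3 as a dashed line. All points lie to the right of the line except TRIM66 over IgG in replicate 1 (2.82), and for most genes the values over IgG are lower than those over input.

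At the lower edge of the tables, the 5 lowest 3' UTR genes were PAPOLG (3.73 and 3.0), TGOLN2 (3.45 and 3.0), EPC2 (3.42 and 3.0), UBQLN1 (3.29 and 3.0) and MPRIP (3.0 and 3.60). Of these, PAPOLG, a poly(A) polymerase gene, was enriched over IgG in both replicates, and TGOLN2, a trans-Golgi protein gene, in neither. Genes just below the threshold are not in the tables over input.

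Within the 1461 3' UTR sites that could be placed in a RefSeq gene of known strand, the median distance from the middle of the site to the gene's 3' end was 1375 bases. Of these sites 27.8% lay within 500 bases of the end, 42.2% within 1000, 61.3% within 2000, and 13.9% beyond 5000. With each gene cut into 5 equal parts from 5′ to 3′, distal intron sites were more frequent in the early parts, with 26.1%, 24.8%, 21.1%, 17.6% and 10.5% of 5981 sites in order. Sites labelled coding sequence leaned the other way, with 9.12% of 274 in the first part and 39.4% in the last. Where the introns lie sets how many sites can fall in a part, and this was not corrected for.

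The highest site of all by the lower replicate lay in a distal intron of PDE4D. PDE4D, a cAMP phosphodiesterase gene, had 10.01 and 9.97 at chromosome 5, 59660076 to 59660203. The neuroligin gene NLGN1 had 9.56 and 10.02, the coatomer gene COPA 9.51 and 10.08, ST7L 9.47 and 9.78 and NFE2L2, the gene of the oxidative stress factor NRF2, 9.83 and 9.47. CSTF3, a subunit gene of the cleavage stimulation factor, had 9.63 and 9.35, the lipid transfer gene PITPNC1 9.38 and 9.35 and the transcriptional kinase gene CDK12 9.30 and 9.47. The 8 differed from each other by less than 0.89 in the lower replicate, and all were enriched over IgG in both replicates (3.60 to 5.05 in replicate 1, 4.88 to 6.99 in replicate 2). In proximal introns BLOC1S6 (9.31 and 9.52), the phosphatase gene PTPN11 (8.93 and 9.18), the polyadenylation factor gene WDR33 (8.49 and 8.74) and the poly(A) polymerase gene PAPOLA (8.25 and 8.52) were among the 8 highest, with AL158825.2, ELP2, GIT2 and EIF4G3. In introns of noncoding transcripts, UBE2W (9.40 and 9.57), AL603839.3 (8.72 and 9.98), ARHGAP27P1-BPTFP1-KPNA2P3 (8.80 and 8.58) and PVT1 (8.44 and 8.76) led. The UBE2W sites in the 3' UTR and in this intron lay 1447 bases apart.

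Sites labelled coding sequence included several high ones. NNT, the mitochondrial transhydrogenase gene, had 10.50 and 8.61, 7195 bases before its gene's end. MARCHF6, an endoplasmic reticulum ubiquitin ligase gene, had 7.53 and 7.68, SLAIN1 7.29 and 8.11 and the xylosyltransferase gene XYLT2 6.99 and 6.91, outside the RefSeq gene at −1846 bases from its end. CYTH2, OTUD4 and COTL1 had lower-replicate folds of 6.68, 6.65 and 6.63. Whether such sites are coding in the transcripts that THP1 makes was not tested.

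Splice site peaks were led by the kinesin gene KIFC3 (8.34 and 8.59), the spermine synthase gene SMS (7.61 and 7.77), IWS1 (7.31 and 7.40) and the autophagy gene ATG13 (8.31 and 7.21), with CEP164, PRRC2C, MED13L and NCBP1 between 6.82 and 7.06 in the lower replicate. In 5' UTRs the pseudouridine synthase gene PUS1 (7.67 and 7.17), FAM135A (6.47 and 7.63), TAOK3 (6.60 and 6.41) and SLC25A29 (6.0 and 7.29) were highest, followed by P4HTM, EIF1B, HMGA1 and WAC. Of these 8, PUS1, HMGA1 and WAC missed the IgG threshold in replicate 1. Despite its label, the P4HTM site lay 46 bases before the RefSeq 3' end of its gene of 17.2 kb. Noncoding exons were led by NUP50-DT (8.22 and 8.30) and, by the lower replicate, TPTEP2-CSNK1E (7.80 and 7.06) and OIP5-AS1 (7.0 and 8.22). The NUP50-DT site missed the IgG threshold in replicate 1 (2.89) and lay outside the RefSeq gene, at −653 bases from its 3' end.

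Peaks on microRNA hairpins reproduced at MIR16-2 and MIR222. The MIR16-2 site covered chromosome 3, 160404752 to 160404819 and took in both mature arms, with 4.60 and 4.63 over input. At MIR222, on the minus strand of chromosome X, the site from 45747031 to 45747083 had 4.09 and 4.32. Neither reached the IgG threshold, with 2.35 for MIR16-2 in replicate 1 (no IgG value for that peak in replicate 2) and 2.53 and 1.20 for MIR222. MIR27A had a peak in replicate 2 only, with 3.77. miR-16 is known to repress BCL2 and miR-222 a cell cycle inhibitor, CDKN1B. Their mature forms are shown with the seed (bases 2 to 8) in capitals, from RefSeq GRCh38.p14. The 4 seeds differ from each other.
hsa-miR-16-5p: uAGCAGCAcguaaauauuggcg
hsa-miR-16-2-3p: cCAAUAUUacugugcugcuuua
hsa-miR-222-3p: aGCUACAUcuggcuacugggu
hsa-miR-222-5p: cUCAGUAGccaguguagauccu

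Mitochondrial transcripts gave 11 and 15 peaks, all on complex I subunit genes. MT-ND2 reached 5.29 and 5.30 over input, MT-ND1 4.22 and 4.56, MT-ND4 3.46 and 3.13 and MT-ND3 3.37 and 3.36, and their peaks lay between 1.59 and 4.28 over IgG. MT-ND6, the gene of the opposite strand, reached 4.13 and 4.14 over input, but each of its peaks was below IgG, from −2.70 to −2.32 in replicate 1 and from −2.50 to −1.70 in replicate 2.

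Genes with peaks were counted as targets when each replicate had a peak with the gene's name. This gave 4874 genes, 4690 of them under a RefSeq symbol. The background was the 12249 protein-coding and lncRNA genes of RefSeq with a cluster in both replicates, of which 4621 (37.7%) were targets. For 2638 of the 12249 the strand was not in the tables used and clusters on either strand were counted. With reproducible 3' UTR peaks alone, 1446 genes were targets, 1444 of them in the background (11.8%). Of 1453 genes with a merged 3' UTR site, 613 (42.2%) also had a site in a distal or proximal intron. These were 18.2% of the 3372 genes with such an intronic site. For 2513 genes all sites were intronic.

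Sites per gene were few for most genes and many for some. Of 4790 genes with a site, 2438 (50.9%) had 1, 2352 had at least 2, 530 had at least 5 and 96 at least 10, and the 530 held 35.3% of the sites. SMYD3, a lysine methyltransferase gene of 758 kb, had 29 sites. EIF4G3, a translation initiation factor gene, had 28, PVT1, a noncoding RNA gene next to MYC, 25, LRMDA 24 and the Polycomb-associated gene SFMBT2 19. PDE4D and NSD1 had 18 each, FNDC3B 16, and FOXP2, INSR, KDM2A and LPP 15 each. All 29 sites of SMYD3 were intronic, and 8 of them were enriched over IgG in both replicates. Density separated these genes: KDM2A had 10.8 and NSD1 10.7 sites per 100 kb of gene, PVT1 8.15 and EIF4G3 7.56, but LRMDA 2.13 and PDE4D 1.16. In SFMBT2 the median gap between neighbouring sites was 713 bases, in PVT1 1761 and in FOXP2 31987.

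Longer genes had more sites but fewer per length. Of the genes with clusters, 13.5% of those up to 10 kb had a site, 26.6% of those from 10 to 30 kb, 46.6% from 30 to 100 kb, 56.5% from 100 to 300 kb and 52.1% above. Per 100 kb of gene the order was reversed, from 3.08 sites in the shortest class through 2.06 and 1.70 to 0.44 in the longest. Over 4537 genes with a site, the Spearman correlation between sites and length was 0.41, a description across genes of the same libraries.

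Of the 11326 sites, 19.0% had another site of the same gene and strand within 500 bases (Wilson 95% interval 18.3 to 19.7), from 21.1% in distal introns and 17.6% in proximal introns to 15.1% in 3' UTRs and 9.01% in coding sequence. With enrichment over IgG also required of the peaks, 9.36% of sites had one. Clusters of reads lie close together in any case: of 74414 merged cluster regions found in both replicates, 34.5% had another within 500 bases on the strand. Of these regions, 15.2% held a site. Where the nearest region was within 500 bases and was itself a site, the share was 44.0% up to 50 bases away, 44.9% from there to 200 and 42.4% from there to 500. Where that nearest region was not a site, it was 13.1%, 10.9% and 10.6%. Beyond 500 and up to 2000 bases the shares were 17.5% and 15.8%, so the difference seen at shorter distances was small there. Neighbouring regions share a transcript and its level in the input, and the part of either was not tested.

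**Figure D4:**
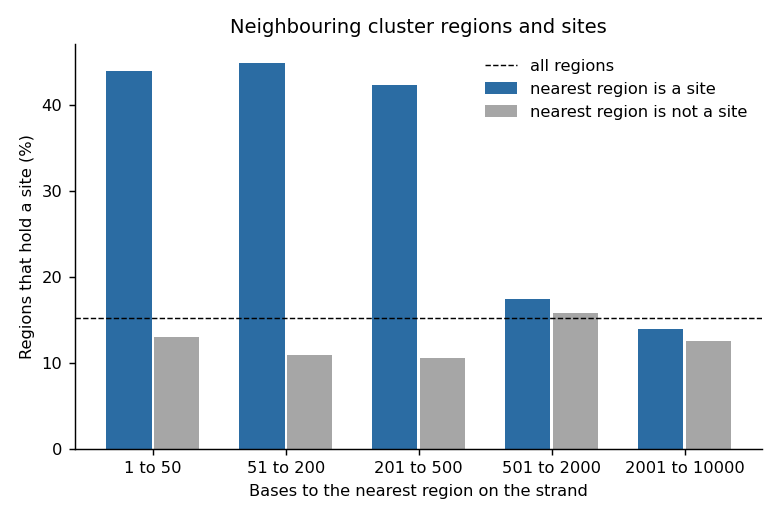
Share of merged cluster regions that hold a site (vertical axis, percent) by the distance to the nearest region on the strand (horizontal axis, bases), for regions whose nearest region is a site and for those whose nearest region is not; the dashed line is the share over all 74414 regions, 15.2%. Up to 500 bases the bars differ, 42.4% to 44.9% against 10.6% to 13.1%, and beyond 500 bases they are alike to within 2 percentage points.

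Within 3' UTRs, 244 of 1453 genes (16.8%) had at least 2 sites and 43 at least 3. The median gap between neighbouring 3' UTR sites of a gene was 613 bases over 299 gaps, of which 80 were of at most 200 bases. TRIM66 had the most, 6 sites within 949 bases of chromosome 11 (8613730 to 8614678) at gaps of 75 to 136 bases. In order of position on the chromosome their folds were 5.52 and 3.27, 7.24 and 7.44, 3.90 and 5.26, 7.67 and 6.66, 4.70 and 4.77, and 3.91 and 4.74. The sites that start at 8613925 and 8614279 were above the other 4 in both replicates. UHMK1, a kinase gene, had 5 sites over 4460 bases, led by 7.11 and 6.58, and the phosphatase gene BPNT2 5 over 5166 bases, with 3.58 to 4.86 in the lower replicate. AGO2, the slicer Argonaute gene, had 4 over 9081 bases, KMT2D, a histone H3 lysine 4 methyltransferase gene, 4 over 1035 bases, and MIDEAS, LNPEP and TAOK1 had 4 each. ATP13A3, ATP2A2, BRAF and CDC42EP3 had 3 each.

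The widest merged site lay on the mRNA of ZFP36L2 itself. It covered 398 bases of the 3' UTR (chromosome 2, 43223138 to 43223535, minus strand), was built from 22 peaks, with log2 folds of 6.94 and 7.69 (input) and of 5.85 and 6.68 (IgG). A second ZFP36L2 site lay 285 bases away with 3.26 and 3.12. ZFP36 had a site of 166 bases that ended 98 bases before the gene's end, with 7.01 and 8.11, and a weaker one 126 bases upstream (3.42 and 3.87). ZFP36L1 had a pair of sites 149 bases apart, with 4.73 and 4.12, and 3.28 and 4.24. Each family member thus carried 2 sites in its 3' UTR, and of these 6 sites only the weaker one of ZFP36 missed the IgG threshold, in replicate 1. Of the clusters on these genes, 18 of 20 and 22 of 28 were peaks. The next widest sites were in an intron of the kinase gene CSNK1G2 (378 bases), in the 5' UTR of NCKAP1 (342 bases, −2.56 and −2.41 over IgG), in the 3' UTR of the enolase gene ENO2 (339 bases, 7.14 and 6.11) and in an intron of LYST (335 bases).

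Gene lists were read against the background of 37.7% targets and 11.8% 3' UTR targets, and against the share of clusters within gene bodies that were peaks, 12.8% and 13.2%. Cytokine and chemokine genes stood furthest from the background for 3' UTRs among lists of 5 or more genes with clusters. Of 14 with clusters, 8 were targets (57.1%), each through its 3' UTR, and 54.3% and 49.2% of the clusters on the 14 genes were peaks. The median lower-replicate fold of the 8 was 6.80, against 4.86 over all genes with a site. IL1B, CXCL8 and VEGFA are given with the highest 3' UTR sites, and CXCL2, another neutrophil chemokine gene, had 7.08 and 6.87. The other 4, named here outside the ranking, were CXCL1 (6.74 and 7.10), CCL2 (4.45 and 4.29), TGFB1 (4.39 and 4.12) and IL23A (3.63 and 3.84). Of the 8, 5 had a site enriched over IgG in both replicates. TNF, IL6 and CCL3 had no cluster in either replicate, and so no value here.

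The lists of STAT output and cytokine signalling brakes and of MAP kinase feedback followed. The first holds drivers as well as brakes of such signals, with JAK1, JAK2 and STAT5B among its targets. In the list of STAT output and cytokine signalling brakes, 8 of 17 genes with clusters were 3' UTR targets (47.1%) and 12 were targets (70.6%). The 17 had a median of 13 clusters in replicate 1, and 18.2% and 18.3% of their clusters were peaks. PIM3, a kinase gene induced by STAT5, had 8.23 and 6.63, the kinase gene PIM1 6.21 and 6.30, and CISH, an inhibitor of cytokine receptor signalling, 6.78 and 6.65. Over IgG, PIM1 (2.16 and 3.62) and CISH (1.84 and 3.77) missed the threshold in replicate 1. SOCS5 was bound in an intron of a noncoding transcript (7.04 and 5.96). Of 16 MAP kinase feedback genes, 7 were 3' UTR targets (43.8%), among them the pseudokinase genes TRIB1 (7.05 and 5.83) and TRIB2 (4.09 and 4.40), the phosphatase gene DUSP1 (4.99 and 4.51) and SPRY4 (4.49 and 5.31). Of 21 immediate early and AP-1 genes, 9 were (42.9%), and 31.9% and 32.6% of their clusters were peaks. FOS had 6.91 and 6.40, FOSL2 6.01 and 8.36, MAFG 6.03 and 5.92 and the Krüppel-like factor gene KLF2 4.89 and 5.59. When peaks had to reach a log2 fold of 4 and a −log10 p of 5, immediate early targets fell from 11 to 5 of 21 and MAP kinase feedback targets from 9 to 6 of 16, while 27.5% of all genes with clusters were targets. At these thresholds cell cycle targets fell from 19 to 12 of 36, hypoxia and glucose metabolism targets from 16 to 10 of 27, and monocyte and macrophage receptor targets from 7 to 3 of 18. With enrichment over IgG also required, 23.9% of all genes were targets, cytokine and chemokine targets fell from 8 to 5 of 14, and autophagy and lysosome targets from 13 to 8 of 26, deadenylation and decapping targets from 17 to 11 of 27, and monocyte and macrophage receptor targets from 7 to 4 of 18. Ribosomal protein targets fell from 3 to 1 of 33 under either choice.

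**Figure D5:**
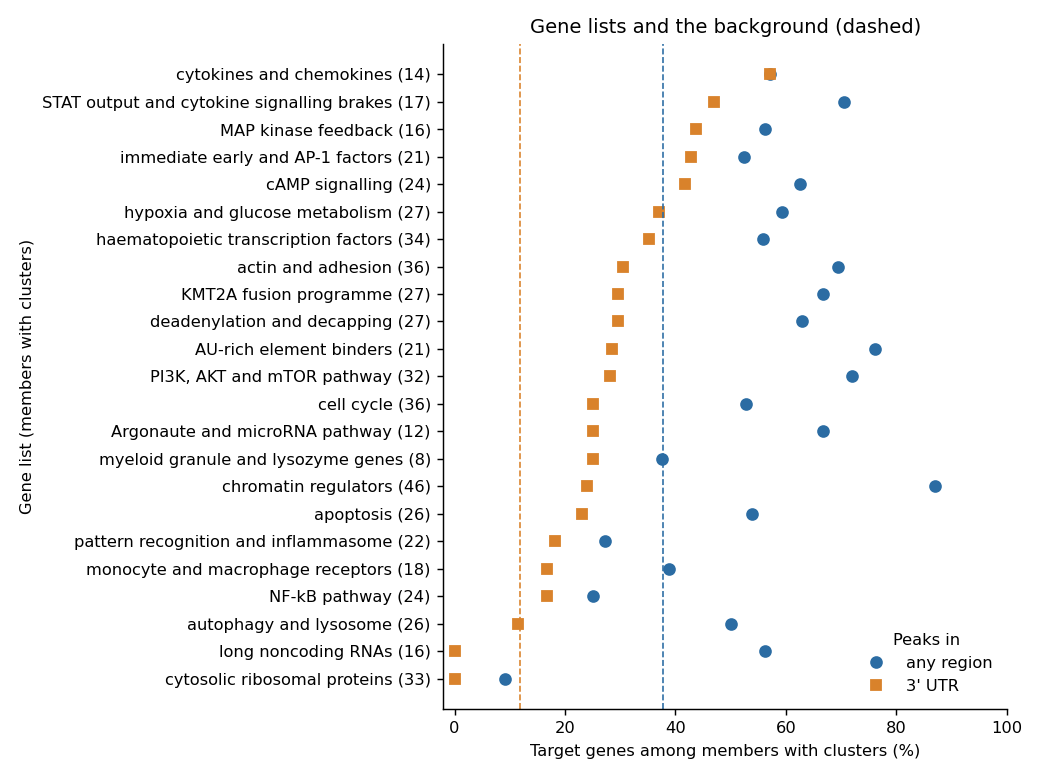
Share of the genes with clusters that were targets (circles) or 3' UTR targets (squares), in percent, with the number of genes with clusters in brackets; dashed lines are the background, 37.7% and 11.8%, and lists of 8 or more genes with clusters are drawn. Cytokines and chemokines have the highest 3' UTR share, 57.1%, chromatin regulators the highest share in any region, 87.0%, and ribosomal protein genes the lowest share in any region, 9.09%.

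In the lists of post-transcriptional regulators, targets in any region outnumbered 3' UTR targets. Of 21 genes of AU-rich element binders, 16 were targets (76.2%) and 6 were 3' UTR targets (28.6%). The stabilising factor gene ELAVL1 had 6.61 and 6.51 and RC3H2, a Roquin gene, 6.26 and 5.25 in their 3' UTRs, while PUM2 (7.07 and 7.22), HNRNPD (6.78 and 7.79) and CELF1 (6.72 and 7.24) were highest in introns. The share of their clusters that were peaks, 13.2% and 13.3%, was close to that of all genes. Deadenylation and decapping genes held 17 of 27, which fell to 9 of 27 at the stricter thresholds, and 14.0% and 16.4% of their clusters were peaks. Among them were PAN3 at 10.16 and 8.77 and PABPC1 at 8.85 and 7.99 in introns. CNOT1, the scaffold of the CCR4-NOT deadenylase, had 7.06 and 5.95 at a splice site and 3.77 and 4.36 in the 3' UTR. Argonaute pathway genes held 8 of 12, led by TNRC6B (7.26 and 8.53) and TNRC6C (7.37 and 6.54) in introns. The 12 had a median of 26.5 clusters in replicate 1, and 15.1% and 13.4% of their clusters were peaks.

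Chromatin regulators had the highest share of targets in any region among lists of 8 or more genes with clusters. Of 46 chromatin regulator genes 40 were targets (87.0%) and 11 were 3' UTR targets (23.9%), but these genes had a median of 37 clusters in replicate 1, against 6 for all genes, and 16.2% and 16.4% of their clusters were peaks. Their highest site was that of NSD2 in the 3' UTR (8.74 and 9.05). KMT2C had 7.74 and 7.81, KDM2A 7.81 and 7.70 and the acetyltransferase gene CREBBP 7.69 and 8.0 in introns, and CREBBP had a 3' UTR site with 5.49 and 4.97. In the KMT2A fusion programme, 18 of 27 were targets, with MLLT10 and JMJD1C (7.99 and 9.27) the highest. The 27 had a median of 22 clusters in replicate 1, and 14.5% and 14.3% of their clusters were peaks. CDK6 was bound in an intron (6.83 and 7.11) and in its 3' UTR (5.83 and 4.26), and DOT1L, which methylates histone H3 lysine 79, in its 3' UTR (4.52 and 5.41). Of 34 haematopoietic transcription factor genes, 12 were 3' UTR targets (35.3%), among them ZEB2 (7.60 and 6.44), the monocyte factor IRF8 (5.30 and 5.51) and CEBPD (5.22 and 5.11). Only 9.11% and 8.67% of the clusters on this list were peaks.

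The lists of signalling, growth and metabolism ran from 11.5% to 41.7% for 3' UTR targets. cAMP signalling genes had 10 of 24 3' UTR targets (41.7%), among them the adenylate cyclase gene ADCY9 (7.10 and 6.89). But 10.9% and 11.9% of the clusters on these genes were peaks, below the 12.8% and 13.2% of all genes. Their median was 26 clusters per gene in replicate 1, against 6 for all genes. Hypoxia and glucose metabolism genes had 10 of 27 3' UTR targets (37.0%), with PFKFB3 (7.58 and 7.36), the amino acid transporter gene SLC7A5 (6.64 and 6.07) and VHL (6.26 and 5.44). On this list 16.7% and 17.4% of clusters were peaks, with a median of 11 clusters per gene in replicate 1. PI3K, AKT and mTOR genes had 23 of 32 targets, among them RPTOR (7.83 and 8.43) and RICTOR (7.75 and 8.65), both in introns. With a median of 19 clusters per gene in replicate 1, 13.8% of their clusters were peaks in each replicate, close to all genes. Actin and adhesion genes had 25 of 36 targets, with PTK2B (9.27 and 9.56) and DIAPH1 (8.84 and 9.19) in introns. Their median was 22.5 clusters per gene in replicate 1, and 15.2% and 15.1% of their clusters were peaks. Cell cycle genes had 19 of 36 targets, with the kinase gene PLK3 at 7.08 and 7.15 in its 3' UTR. For them the median was 6 clusters, and 16.7% and 14.7% of clusters were peaks. In the apoptosis list, 14 of 26 were targets, BIRC5 in an intron (8.34 and 8.58), TNFRSF10B, a TRAIL receptor gene, in its 3' UTR (6.40 and 6.03), and BCL2 in its 3' UTR (4.85 and 5.15). There, 12.3% and 15.0% of the clusters were peaks. Autophagy and lysosome genes had 13 of 26 targets, but 3 3' UTR targets (11.5%), which is near the background.

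Some lists were near or below the background for targets in any region. Ribosomal protein genes, among the most abundant mRNAs, had 3 targets of 33 (9.09%), RPS3, RPS24 and RPL6, all in introns, none in the 3' UTR, and 3.34% and 3.56% of their clusters were peaks. NF-kB pathway genes had 6 of 24 targets with 5.07% and 5.49% of clusters as peaks, although the inhibitor gene NFKBIA (5.68 and 5.22) and TNFAIP3 (3.71 and 5.16) were bound in their 3' UTRs. Pattern recognition genes had 6 of 22 (27.3%), including STING1, CGAS (6.21 and 6.61) and the inflammasome gene NLRP3 (5.68 and 6.33 in the 3' UTR). Monocyte and macrophage receptors had 7 of 18 (38.9%), with CD300LF at 6.78 and 7.49, and myeloid granule genes 3 of 8 (37.5%), VCAN, CTSS and CST3 (5.23 and 5.42). Long noncoding RNA genes were above it, with 9 targets of 16 (56.3%), and had PVT1, FTX (8.28 and 7.51) and DLEU2 (6.24 and 6.08) in introns and SNHG16 (5.55 and 4.94) in an exon. The 16 had a median of 16.5 clusters in replicate 1, against 6 for all genes, and 17.6% and 26% of their clusters were peaks. Of the lymphoid markers with clusters, CD4, which monocytes also express, was a target (4.28 and 5.68, an intron).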

How the data were processed

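The labels describe crosslinking at 254 nm with 400 mJ/cm2, RNase I, a membrane cut from 30 to 105 kDa and single-end libraries. Per the submitters' processing notes, the tools included STAR 2.5.0c, cutadapt 1.14, edgeR and Picard 2.6.0, and hg38 stood beside hg19 and GRCh37 as builds, of which the coordinates match hg38. Not given in the sources used here are the peak caller, the read depth, the test behind the p and how folds were scaled. The authors' deposited tables over input hold the log2 fold and the −log10 p of each peak, with region and gene, called per immunoprecipitate. The authors' deposited IgG lists hold the same log2 fold and −log10 p over IgG for every cluster, and were matched to peaks by identical coordinates. These lists are numbered 3 and 4, and no label ties the numbers to replicates 1 and 2: list 3 holds 19306 of the 19325 peaks of replicate 1 at identical coordinates and 106 of the 18901 of replicate 2, and list 4 108 and 18871. Starts were taken as 0-based and are printed 1-based.

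Peaks were paired, merged and counted with pandas 2.3.3 and numpy 2.4.6 by code that was tested on simulated intervals, and Wilson intervals came from scipy 1.17.1. Peaks with several gene names were left out of gene counts. Older symbols were replaced through RefSeq GRCh38.p14. No test was run, since each replicate is 1 ratio. The 26 gene lists, the members and the rules were chosen with earlier results of these data known. Named genes are the 25 highest for 3' UTRs and 8 for other regions by the lower replicate, the 12 with most sites, the 12 with most 3' UTR sites, the 6 largest replicate differences, the 5 widest sites, the 5 lowest 3' UTR genes, up to 4 targets per list and the TIS11 family. Alternatives were another threshold, overlap, gap and distance, IgG as a second control, and each replicate by itself. Some items are not reported here.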

Additional observations from a re-analysis of the deposited data

How the results depend on the processing

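When peaks had to reach a log2 fold of 4 and a −log10 p of 5, they fell to 12456 and 11683, the share of replicate 1 peaks found again to 77.6%, the 3' UTR share to 10.9%, 3' UTR target genes to 646, sites to 6540, genes with at least 2 sites to 1382, sites with another within 500 bases to 13.9% and the SD between replicates to 0.86. With enrichment over IgG also required, the same quantities were 8337 and 11152 peaks, 85.2% and 67.8% found again, 19.8%, 873 genes, 4969 sites, 1006 genes, 9.36% and an SD of 0.95, and target genes numbered 3050. So the 3' UTR share moved in opposite directions under these 2 choices. With at least 50% of both peaks shared, 65.7% and 67.1% of peaks were found again, the 3' UTR share was 15.5% and the SD 0.84. Counted over merged sites the 3' UTR share was 15.5%. Merging across gaps of 50 bases left 15.6% of sites with another within 500 bases, and within 200 bases 11.95% had one. With each replicate by itself, the 3' UTR share was 16.1% to 16.7%, target genes 5303 to 5450, 3' UTR target genes 1886 to 1913, sites 13950 to 14505, genes with at least 2 sites 2764 to 2883, sites with another within 500 bases 22.0% to 24.9% and list genes that were targets 341 to 347, against 319. The share of window sites with ATTTA, a measure chosen after the data were seen, was 75.0% where enrichment over IgG was also required, and 34.2% to 41.7% with each replicate by itself. The 75.0% rests on few sites, since of the 30 only 6 with ATTTA and 1 without were enriched over IgG in both replicates. The cause of these shifts was not tested. Of 56 recomputed values, 24 kept within the limits set for them (1.5 times for counts, the spread or interval for shares).

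The motif search over all sites was not run, since no genome of the build was used here. No paired analysis was possible because the files give 1 ratio to a control per replicate and no value for each library. Depth per library is unknown, so the intervals printed cover counting error over peaks only, and the folds of low sites are not ranked.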
